A study of Mus musculus with 9 samples.

Results

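Matrix metalloproteinases and their tissue inhibitors (TIMPs) were followed in cultured mouse bone marrow macrophages. The members were the 9 UniGene clusters of a list fixed by cluster number, which were the metalloproteinases Mmp2 (Mm.29564), Mmp8 (Mm.16415), Mmp9 (Mm.4406), Mmp12 (Mm.2055), Mmp13 (Mm.5022) and Mmp14 (Mm.280175) and the inhibitors Timp1 (Mm.8245), Timp2 (Mm.206505) and Timp3 (Mm.4871). All 9 were found among the 17810 clusters of the table, each with a single probe set. The symbols came with the list, because the deposited table holds cluster numbers and no gene names.

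Bone marrow of C57BL/6 mice was cultured with M-CSF, the growth factor of macrophages, at 30 ng/ml in every group, and RNA was taken after 7 days. On day 4 the medium was exchanged, and stimulation then lasted 3 days. The cmB16F1+dexa+IL4 group received medium conditioned by B16F1, a mouse melanoma cell line, with 5e-07 M dexamethasone, a synthetic glucocorticoid, and 10 ng/ml interleukin 4 (IL-4). The dexa+IL4 group received the hormone and the cytokine at these doses without conditioned medium, and the cmB16F1 group received conditioned medium alone. Each group had 3 Affymetrix arrays, one for each sample. Whether M-CSF was present after the exchange, and how many mice gave the marrow, is not stated in the labels, so the p-values measure the spread between these samples, which may be technical. Cultures in fresh medium without any agent were not analysed here, so each value below is relative to another stimulated group.

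Matrix metalloproteinases are zinc-dependent enzymes that are made as inactive precursors and cut collagens, elastin, gelatin and other proteins around the cell. TIMPs bind the active enzymes and block them, and Timp2 with Mmp14 also takes part in activating the Mmp2 precursor at the cell surface. Macrophages are a well known source of Mmp12, the macrophage elastase, while Mmp8 is known as the collagenase of neutrophils. Glucocorticoids are known to restrain several metalloproteinase genes that carry sites for the transcription factor AP-1. The arrays measured RNA, so neither enzyme protein nor activity is described.

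Of the 9 genes, 3 lie on chromosome 9 in the RefSeq gene table, where Mmp13 and Mmp12 are next to each other and 4 other protein-coding genes separate Mmp12 from Mmp8. Their upstream sequences are shown because Mmp13 and Mmp12 passed the test in the same pair of comparisons and Mmp8 in another pair. Mmp9 on chromosome 2 and Timp2 on chromosome 11 passed in the same pair as Mmp13 and Mmp12. Passing in that pair was therefore not particular to the genes on chromosome 9. Each sequence is the 250 bases before an annotated start, on the plus strand, from RefSeq (GRCm38.p6). The RefSeq promoter table listed 7 of the 9 members, all but Mmp2 and Mmp9, whose upstream sequences were therefore not examined. It gave Mmp12 an upstream and a downstream start. Capitals mark every match, on either strand, to TGANTCA, the site of AP-1, to AGGAAG, the core of sites for ETS factors, and to AGAACA, the half-site of the glucocorticoid receptor. They also mark TATAAA, a core promoter element, on the gene's own strand.
Mmp13, chr9:7272264-7272513: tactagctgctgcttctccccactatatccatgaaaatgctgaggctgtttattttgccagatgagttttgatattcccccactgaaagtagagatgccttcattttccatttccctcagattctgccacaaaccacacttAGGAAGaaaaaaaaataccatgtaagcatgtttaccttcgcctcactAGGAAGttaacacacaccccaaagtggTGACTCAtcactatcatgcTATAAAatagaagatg
Mmp12, upstream start, chr9:7344147-7344396: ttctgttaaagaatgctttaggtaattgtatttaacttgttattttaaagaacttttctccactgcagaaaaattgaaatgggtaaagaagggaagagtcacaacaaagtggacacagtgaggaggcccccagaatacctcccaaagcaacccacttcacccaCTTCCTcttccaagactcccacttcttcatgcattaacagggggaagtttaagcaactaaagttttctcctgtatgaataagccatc
Mmp12, downstream start, chr9:7347124-7347373: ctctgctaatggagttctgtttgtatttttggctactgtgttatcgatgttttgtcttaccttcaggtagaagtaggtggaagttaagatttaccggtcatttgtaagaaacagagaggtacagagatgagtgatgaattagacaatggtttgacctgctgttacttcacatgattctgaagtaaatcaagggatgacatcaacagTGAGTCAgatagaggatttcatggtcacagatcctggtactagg
Mmp8, chr9:7558179-7558428: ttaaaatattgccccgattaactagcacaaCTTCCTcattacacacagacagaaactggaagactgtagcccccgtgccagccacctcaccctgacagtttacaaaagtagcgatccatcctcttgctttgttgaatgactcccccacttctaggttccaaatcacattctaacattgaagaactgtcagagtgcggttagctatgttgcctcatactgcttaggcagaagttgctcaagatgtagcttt

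A TGANTCA match stood 35 to 29 bases before the start of Mmp13 and 44 to 38 bases before the downstream start of Mmp12. None of the other 6 sequences listed for the members, among them that of Timp2, held one. Mmp2 and Mmp9 were not listed. Of the 32851 entries of the table, each cut to the same 250 bases, 6.75% held one. Mmp13 also held AGGAAG at 2 places and TATAAA once, and Mmp8 and the upstream start of Mmp12 each held AGGAAG once on the opposite strand. The sequences of Mmp14, Timp1 and Timp3, which are not shown, held AGGAAG as well. AGGAAG occurred in 29.5% of all sequences and TATAAA in 7.59%. AGAACA, found in 16.1% of all sequences, was present in none of the 8, and no matches overlapped. A match describes letters in this window only.

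Values are on the log2 scale, one for each probe set and array, and ranged from 5.86 to 14.2 over the table. The low end of the scale was read from 27 bacterial poly-A control sets, which ranged from 6.09 to 7.00. The arrays' medians lay between 7.19 and 7.25. The mean of the hybridization controls was 10.3 to 10.6 in cmB16F1+dexa+IL4, 10.0 to 10.2 in dexa+IL4 and 10.0 to 10.3 in cmB16F1. Scaling the arrays to those controls moved the median difference of all clusters to -0.26 between cmB16F1+dexa+IL4 and dexa+IL4 and to -0.20 between cmB16F1+dexa+IL4 and cmB16F1. With that scaling, the share of clusters higher among those called became 5.34% instead of 49.7% in the first of these comparisons and 11.7% instead of 46.4% in the second, and median centring gave 38.4% in the first. The labelled cell type could not be set against its markers, because macrophage and neutrophil markers cannot be found by name in the table. For the same reason the other metalloproteinases, ADAM enzymes and plasminogen activators were not looked up. In bulk RNA of this kind, fewer cells that express a gene and less RNA per cell cannot be told apart.

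**Figure D1:**
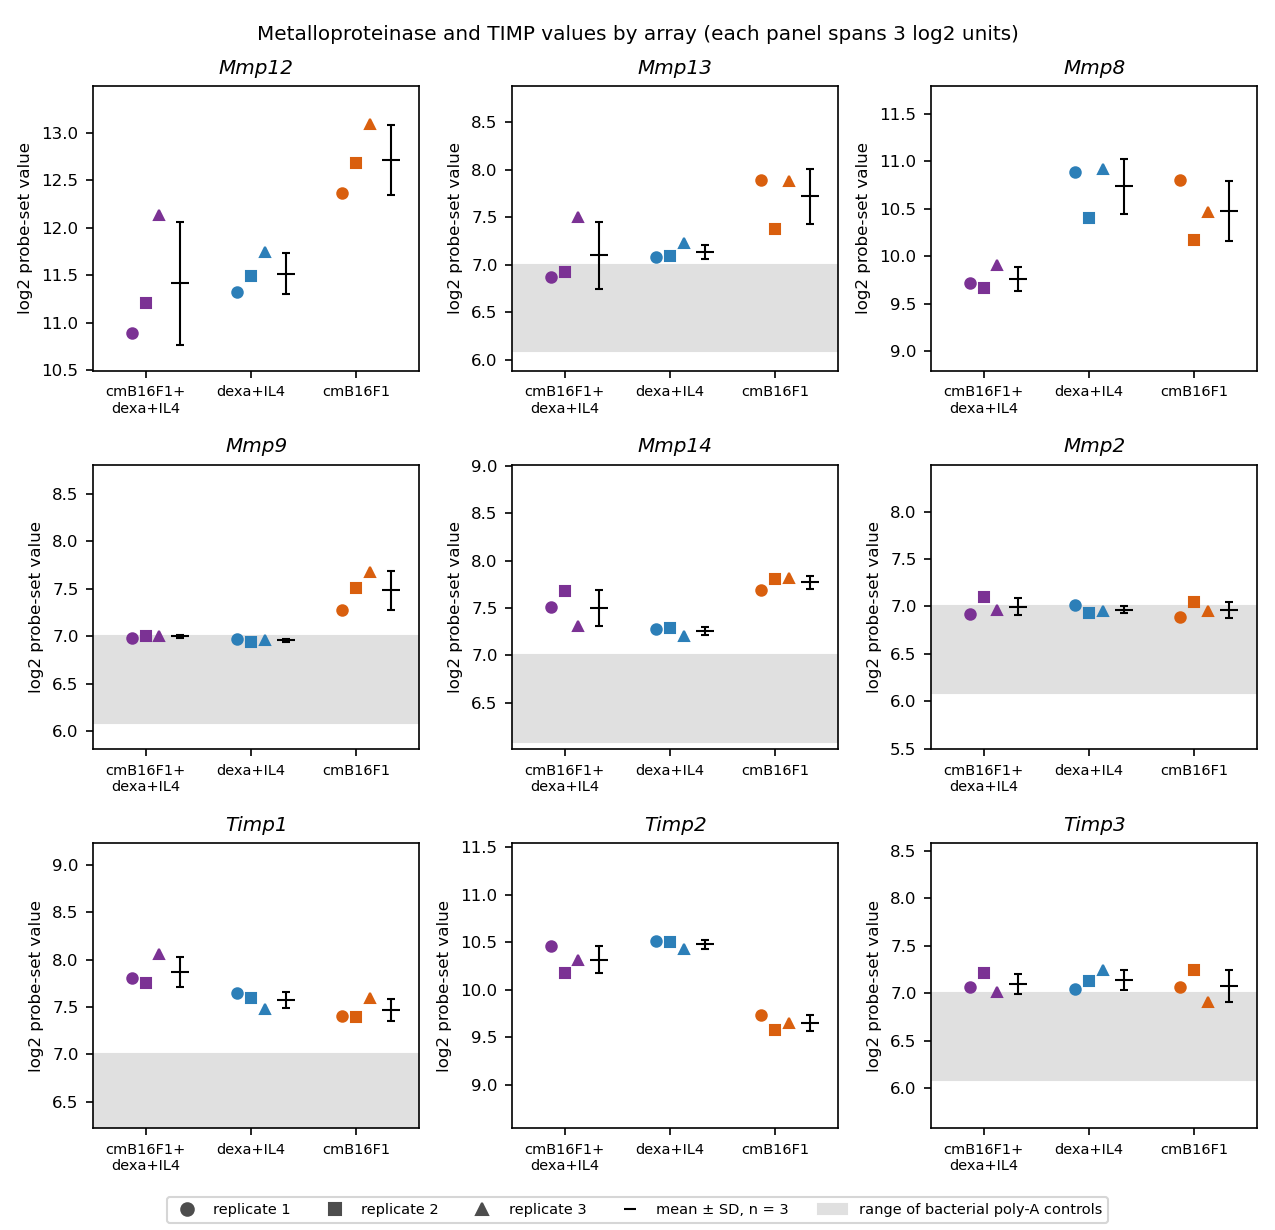
Log2 probe-set value (vertical axis) of each member on each of the 9 arrays, by group (horizontal axis), with the mean and SD (n = 3) to the right of the points. Grey bands span the bacterial poly-A controls, 6.09 to 7.00. Mmp12 and Mmp9 lie highest in cmB16F1, Mmp8 lies lowest in cmB16F1+dexa+IL4, Timp2 lies lowest in cmB16F1, and Mmp2 stays at the edge of the control range in all groups.

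The first question was how dexamethasone with IL-4 altered the genes in cells that also received melanoma-conditioned medium. In cmB16F1+dexa+IL4 compared with cmB16F1, 4 of the 6 metalloproteinases fell (Mmp8, Mmp9, Mmp12 and Mmp13) and 2 of the 3 inhibitors rose (Timp1 and Timp2). No metalloproteinase rose and no inhibitor fell. Altogether 6 of the 9 members passed the test, which was limma with a Benjamini-Hochberg adjusted p under 0.05 over all features, against 14.1% of all clusters. Of all clusters, 7.57% fell and 6.56% rose. These counts come from the model without a block. With the replicate number as a block, which pairs these groups, 7 of the 9 members and 3052 of the 17810 clusters were called. Arrays of both groups were fully apart in 6 of 9 members, against 28.5% of all clusters. The median size of the log2 difference was 0.49 over the members and 0.06 over all clusters. Here and below, all clusters include dim ones, since no filter was applied. The median of the cluster means, 7.22, lay near the top of the controls, 7.00. The members were chosen with earlier results of these data known.

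Mmp12, which degrades elastin, had log2 values of 10.89, 11.21 and 12.14 in cmB16F1+dexa+IL4, against 12.36, 12.68 and 13.10 in cmB16F1. All 3 cmB16F1 arrays lay above the cmB16F1+dexa+IL4 arrays, although replicate 3 of cmB16F1+dexa+IL4 came within 0.22 of the lowest of them. The mean was 11.41 ± 0.65 in cmB16F1+dexa+IL4 and 12.71 ± 0.37 in cmB16F1 (SD, n = 3), which is 2.46-fold lower (log2 difference -1.30, SE 0.289, limma adjusted p = 0.0131). Between arrays of equal number the differences were -1.47, -1.47 and -0.96. The call was lost without replicate 2 of cmB16F1+dexa+IL4 (limma adjusted p = 0.0535) and was kept under the other 16 alternatives.

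Mmp13, a collagenase encoded next to Mmp12, had values of 6.87, 6.92 and 7.51 in cmB16F1+dexa+IL4, against 7.89, 7.38 and 7.88 in cmB16F1. Replicate 3 of cmB16F1+dexa+IL4 lay above replicate 2 of cmB16F1, so the groups overlapped. The means were 7.10 ± 0.35 in cmB16F1+dexa+IL4 and 7.72 ± 0.29 in cmB16F1 (SD, n = 3), or 1.54-fold lower (log2 difference -0.62, SE 0.173, limma adjusted p = 0.0398). Between arrays of equal number the differences were -1.02, -0.46 and -0.38. The call was kept with the replicate number as a block, which pairs these groups (limma adjusted p = 0.00883). It was lost under 9 of 17 alternatives, with limma adjusted p up to 0.133 without replicate 2 of cmB16F1+dexa+IL4. It was also lost without replicate 1 of cmB16F1+dexa+IL4, without replicate 1 or 3 of cmB16F1, without any 1 of the dexa+IL4 arrays, with array weights, and with only the arrays compared. Since 2 of the cmB16F1+dexa+IL4 arrays lay within the control range, the fold may be too small.

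Mmp9, the gelatinase B gene, had values of 6.99, 7.01 and 7.01 in cmB16F1+dexa+IL4, against 7.27, 7.51 and 7.68 in cmB16F1. The 3 arrays of cmB16F1+dexa+IL4 sat at the top of the control range, and all cmB16F1 arrays were above it. The mean was 7.00 ± 0.01 in cmB16F1+dexa+IL4 and 7.49 ± 0.20 in cmB16F1 (SD, n = 3), or 1.40-fold lower. All 3 arrays of cmB16F1+dexa+IL4 lay above their own highest poly-A control, but so narrowly that the fold may be too small. The fitted log2 difference was -0.49 (SE 0.0806, 95% confidence interval -0.67 to -0.31, limma adjusted p = 0.00255). The call was kept under all 17 alternatives.

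Mmp8 had values of 9.72, 9.66 and 9.90 in cmB16F1+dexa+IL4, against 10.80, 10.17 and 10.46 in cmB16F1. The groups did not overlap. The means were 9.76 ± 0.12 in cmB16F1+dexa+IL4 and 10.48 ± 0.32 in cmB16F1 (SD, n = 3), or 1.64-fold lower (log2 difference -0.71, SE 0.171, limma adjusted p = 0.0192). Under array weights this call was lost, as it was without replicate 1 or 2 of cmB16F1+dexa+IL4 or replicate 1 or 3 of cmB16F1, where limma adjusted p ran from 0.0510 to 0.0686. The call was kept with the replicate number as a block, which pairs these groups (limma adjusted p = 0.00202). Whether the number of neutrophils in the cultures moved with Mmp8 was not tested, because their markers could not be looked up.

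Mmp14, a membrane-anchored enzyme that cuts collagen and activates the Mmp2 precursor, had values of 7.51, 7.68 and 7.31 in cmB16F1+dexa+IL4, against 7.69, 7.81 and 7.82 in cmB16F1. All arrays of cmB16F1+dexa+IL4 were below those of cmB16F1, the nearest by 0.01. The log2 difference of -0.27, with a 95% confidence interval from -0.45 to -0.09, did not pass (limma adjusted p = 0.0520). With the replicate number as a block, which pairs these groups, it passed (limma adjusted p = 0.0295). In all, 6 of 17 alternatives called Mmp14, and their adjusted p ranged from 0.00295 to 0.143 over the 17.

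Mmp2, the gelatinase A gene, had values of 6.93, 7.10 and 6.97 in cmB16F1+dexa+IL4, against 6.89, 7.05 and 6.95 in cmB16F1. These values straddled the top of the control range, so a difference was not detectable at this signal (log2 difference 0.03, 95% confidence interval -0.09 to 0.15, limma adjusted p = 0.777).

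Among the inhibitors, Timp2 had values of 10.46, 10.18 and 10.31 in cmB16F1+dexa+IL4, against 9.74, 9.57 and 9.64 in cmB16F1. The groups lay well apart. The mean was 10.32 ± 0.14 in cmB16F1+dexa+IL4 and 9.65 ± 0.08 in cmB16F1 (SD, n = 3), or 1.59-fold higher (log2 difference 0.67, SE 0.0781, limma adjusted p = 2.795e-04). The call was kept under all 17 alternatives.

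Timp1, which binds Mmp9 and its precursor, had values of 7.80, 7.76 and 8.05 in cmB16F1+dexa+IL4, against 7.41, 7.39 and 7.60 in cmB16F1. The groups did not overlap. The mean was 7.87 ± 0.16 in cmB16F1+dexa+IL4 and 7.47 ± 0.11 in cmB16F1 (SD, n = 3), or 1.32-fold higher (log2 difference 0.40, SE 0.0853, limma adjusted p = 0.00997). Arrays of equal number differed by 0.40, 0.36 and 0.46. With scaling to the hybridization controls the log2 difference was 0.19 and the call was lost (limma adjusted p = 0.231).

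Timp3, an inhibitor that binds to the extracellular matrix, had values of 7.07, 7.22 and 7.01 in cmB16F1+dexa+IL4, against 7.07, 7.25 and 6.91 in cmB16F1. The groups overlapped. The values lay near the top of the controls, and that of cmB16F1 replicate 3 lay within their range (log2 difference 0.02, 95% confidence interval -0.17 to 0.22, limma adjusted p = 0.912).

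**Figure D2:**
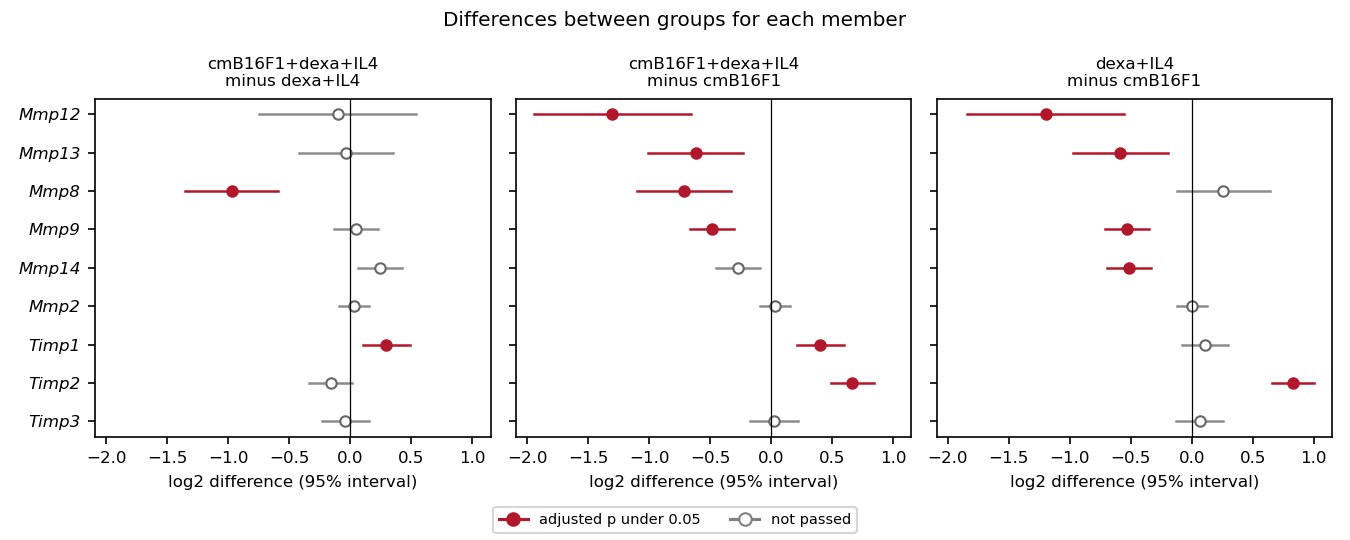
Log2 difference of each member between groups (horizontal axis) with its unadjusted 95% confidence interval, for the 3 comparisons. Filled red points passed an adjusted p under 0.05 over all features. Against cmB16F1, 4 metalloproteinases passed the test left of 0 in each of the other panels, with Mmp14 also left of 0 but not called in cmB16F1+dexa+IL4, while Timp2 passed to the right in both.

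The second question was how the single arms differed, which vary in every agent. In dexa+IL4 compared with cmB16F1, Mmp9, Mmp12, Mmp13 and Mmp14 fell and Timp2 rose. The other 4 members (Mmp2, Mmp8, Timp1 and Timp3) did not pass. The 5 of 9 members called stood against 25.0% of all clusters, of which 12.2% fell and 12.8% rose. Arrays were fully apart in 5 of 9 members, against 44.3% of all clusters. The median size of the log2 difference was 0.51 over the members and 0.08 over all clusters. This comparison shares its cmB16F1 arrays with the first.

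Mmp12 had values of 11.32, 11.49 and 11.75 in dexa+IL4, all below the cmB16F1 values given above. With a mean of 11.52 ± 0.21 in dexa+IL4 against 12.71 ± 0.37 in cmB16F1 (SD, n = 3), it was 2.29-fold lower (log2 difference -1.20, SE 0.289, limma adjusted p = 0.0129). The call was lost without replicate 1 of dexa+IL4 (limma adjusted p = 0.0522) and held under the other 16 alternatives. Mmp13, at 7.08, 7.09 and 7.22 in dexa+IL4, also lay below every cmB16F1 array. It was 1.50-fold lower (log2 difference -0.58, limma adjusted p = 0.0334), a fold that may be too small, since these values were just above the controls. The Mmp13 call was lost without any 1 dexa+IL4 array and without replicate 1 or 3 of cmB16F1, with limma adjusted p from 0.0629 to 0.101.

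Mmp9 had values of 6.97, 6.94 and 6.97 in dexa+IL4, all within the control range. Where an array's highest poly-A control exceeded the Mmp9 value, that control was used instead, and Mmp9 was then 1.42-fold lower than in cmB16F1. This fold may be too small because of the controls, and it does not allow for the spread between arrays. The fitted log2 difference was -0.53 (95% confidence interval -0.71 to -0.35, limma adjusted p = 9.331e-04). Mmp14 had values of 7.28, 7.29 and 7.20 in dexa+IL4, below all cmB16F1 arrays. Its mean was 7.26 ± 0.05 in dexa+IL4 against 7.77 ± 0.07 in cmB16F1 (SD, n = 3), or 1.43-fold lower (log2 difference -0.51, SE 0.0809, limma adjusted p = 0.00115). Both calls held under all 17 alternatives.

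Timp2 had values of 10.51, 10.50 and 10.42 in dexa+IL4, the closest set of replicates among the arrays of this gene. Its mean was 10.48 ± 0.05 in dexa+IL4 against 9.65 ± 0.08 in cmB16F1 (SD, n = 3), or 1.78-fold higher (log2 difference 0.83, SE 0.0781, limma adjusted p = 4.311e-05), and the call held under all 17 alternatives. Timp1, at 7.65, 7.59 and 7.48 in dexa+IL4, overlapped cmB16F1 (log2 difference 0.11, 95% confidence interval -0.08 to 0.30, limma adjusted p = 0.399). Mmp8, at 10.88, 10.40 and 10.92 in dexa+IL4, overlapped cmB16F1 as well, with a difference of 0.26 and an interval from -0.12 to 0.64 (limma adjusted p = 0.316).

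Mmp2 and Timp3 again gave no call, with values of 7.01, 6.94 and 6.96 for Mmp2 and 7.04, 7.13 and 7.25 for Timp3 in dexa+IL4. Their log2 differences from cmB16F1 were 0.003 and 0.06, with 95% confidence intervals from -0.12 to 0.12 and from -0.13 to 0.26 (limma adjusted p = 0.975 and 0.646).

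The third question was how conditioned medium altered the genes under dexamethasone and IL-4. In cmB16F1+dexa+IL4 compared with dexa+IL4, Mmp8 fell and Timp1 rose, and the other 7 members did not pass. The 2 of 9 members called stood against 17.9% of all clusters. Arrays were fully apart in 4 of 9 members (Mmp8, Mmp9, Mmp14 and Timp1), against 36.1% of all clusters. For Mmp9 the gap was only 0.02, between values at the controls in both groups. The median size of the log2 difference was 0.10 over the members and 0.07 over all clusters. This comparison shares arrays with both of the others.

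Mmp8, at 9.72, 9.66 and 9.90 in cmB16F1+dexa+IL4 against 10.88, 10.40 and 10.92 in dexa+IL4, was 1.96-fold lower (log2 difference -0.97, SE 0.171, limma adjusted p = 0.00349). The groups lay apart, and the call held under all 17 alternatives, with log2 differences from -1.23 to -0.88. Mmp8 was thus called lower in cmB16F1+dexa+IL4 than in either single arm, although its call against cmB16F1 was lost under 5 of 17 alternatives. How many of all clusters were called against both single arms was not counted.

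Timp1, at 7.80, 7.76 and 8.05 in cmB16F1+dexa+IL4 against 7.65, 7.59 and 7.48 in dexa+IL4, was 1.23-fold higher (log2 difference 0.30, SE 0.0853, limma adjusted p = 0.0390). Timp1 was thus called higher in cmB16F1+dexa+IL4 than in either single arm, but its call against dexa+IL4 was lost under 7 of 17 alternatives. These were median centring (limma adjusted p = 0.0641), the scaling by hybridization controls, and omission of any 1 dexa+IL4 array or replicate 1 or 3 of cmB16F1+dexa+IL4, where adjusted p ran from 0.0538 to 0.138. With scaling to the hybridization controls the log2 difference was 0.04 (limma adjusted p = 0.790).

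Mmp14 was higher on all 3 cmB16F1+dexa+IL4 arrays than on the dexa+IL4 arrays, but its log2 difference of 0.24, with a 95% confidence interval from 0.06 to 0.42, did not pass (limma adjusted p = 0.0659). Mmp14 was called without replicate 3 of cmB16F1+dexa+IL4, with a log2 difference of 0.34 (limma adjusted p = 0.00607). When arrays were scaled by the hybridization controls the difference was -0.01 (limma adjusted p = 0.929). Mmp14 in cmB16F1+dexa+IL4, at 7.50 ± 0.19 (SD, n = 3), lay between dexa+IL4 and cmB16F1.

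The differences of Mmp12, Mmp13 and Mmp9 were -0.10, -0.03 and 0.04, with 95% confidence intervals from -0.75 to 0.54, from -0.42 to 0.35 and from -0.14 to 0.22 (limma adjusted p = 0.857, 0.929 and 0.774). For Mmp12 the interval is wide. It rests on a spread shared by the 3 groups, in each of which Mmp12 rose with the replicate number. In cmB16F1+dexa+IL4, replicate 3 lay 0.93 above replicate 2. Replicate 3 of cmB16F1+dexa+IL4 was also the highest of its group for Mmp8, Mmp13 and Timp1 and the lowest for Mmp14. Timp2 differed by -0.16 with an interval from -0.34 to 0.01 (limma adjusted p = 0.193). Timp3 differed by -0.04 with an interval from -0.23 to 0.15, and Mmp2 by 0.03 with an interval from -0.09 to 0.15 (limma adjusted p = 0.811 and 0.777). Scaled by the hybridization controls, Mmp12, Timp2 and Timp3 passed, at -0.36, -0.42 and -0.30, which compares with the shift of -0.26 in the median of all clusters.

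Enzymes and the inhibitors that bind them were also followed together, as the log2 value of the enzyme minus that of the inhibitor on the same array. Different probe sets are not on a common scale, so only the change of this quantity between groups is given, without a test. Relative to cmB16F1, Mmp9 minus Timp1 changed by -0.89 in cmB16F1+dexa+IL4 and by -0.64 in dexa+IL4, and all arrays of both groups lay below the cmB16F1 arrays. These sizes are affected by the control range that Mmp9 had reached in both groups. Mmp14 minus Timp2 changed by -0.94 in cmB16F1+dexa+IL4 and by -1.34 in dexa+IL4, again with no overlap. In cmB16F1+dexa+IL4 set against dexa+IL4, Mmp14 minus Timp2 changed by 0.41 without overlap of arrays. Mmp9 was at the controls in both of these groups, so its change relative to Timp1 is not given for them. Mmp2 was at the controls in all groups, so Mmp2 minus Timp2, which changed by -0.63 in cmB16F1+dexa+IL4 and -0.83 in dexa+IL4 relative to cmB16F1, only restates the Timp2 differences of 0.67 and 0.83.

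**Figure D3:**
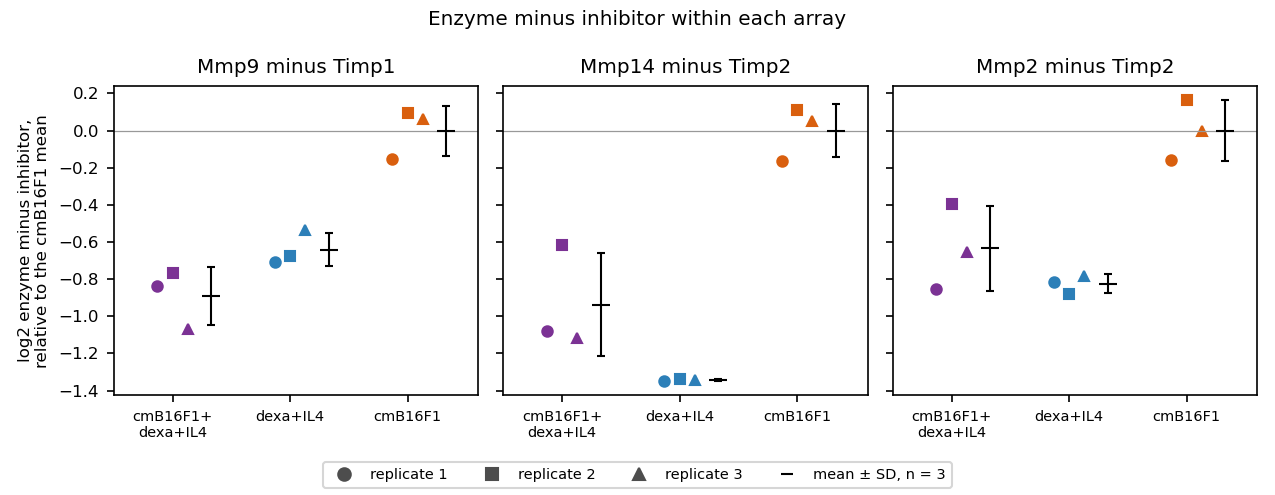
Log2 enzyme minus log2 inhibitor on each array, relative to the cmB16F1 mean (vertical axis), by group, with mean and SD (n = 3) beside the points. For Mmp9 minus Timp1 and Mmp14 minus Timp2 the cmB16F1+dexa+IL4 and dexa+IL4 arrays lie below the cmB16F1 arrays, with Mmp9 at the poly-A controls in these groups, and Mmp2 minus Timp2 shows Timp2 alone, since Mmp2 was at the controls throughout.

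Mmp12 had the widest range of group means among the members, 1.30. Among 8899 clusters with a mean above the median of all clusters, 7.22, those most like it over the 9 arrays were Mm.18628 (Pearson r = 0.98) and Mm.27486 (r = 0.98). The most opposed were Mm.238973 (r = -0.97) and Mm.318736 (r = -0.97). Mm.18628 averaged 10.19 in cmB16F1+dexa+IL4, 10.20 in dexa+IL4 and 10.95 in cmB16F1, and Mm.238973 averaged 11.80, 11.81 and 11.43 in the same order. The 9 arrays fall into 3 groups, so these correlations largely restate the group means, and the table gives no names for these clusters.

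**Figure D4:**
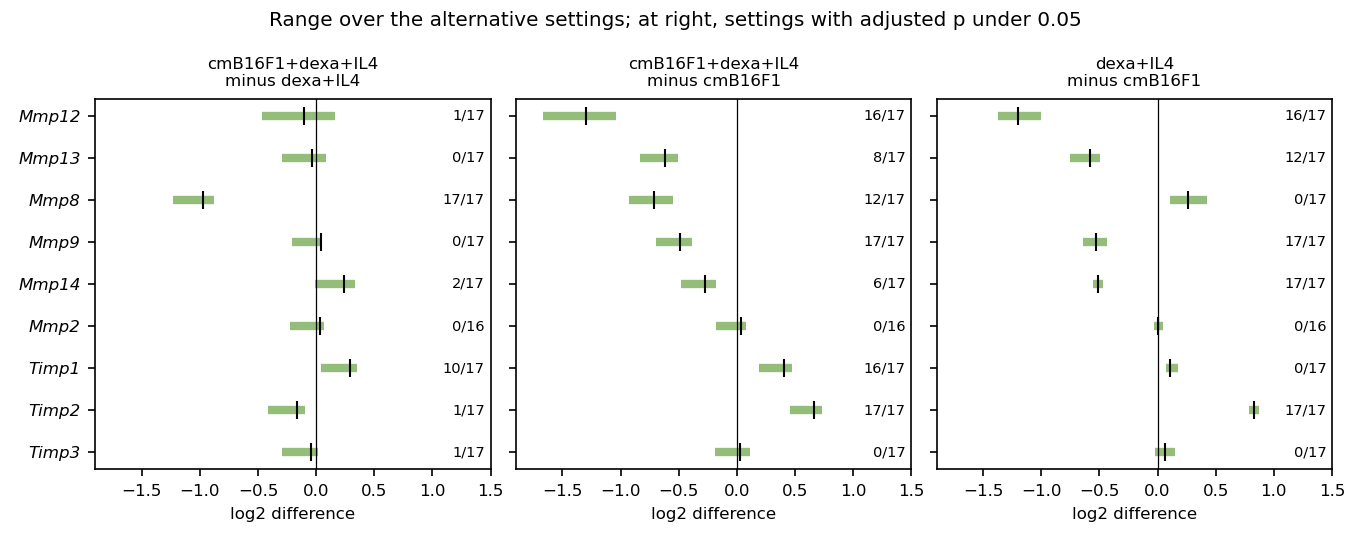
Range of each member's log2 difference (horizontal axis) over the alternative settings, as a green bar, with the value as reported as a black line, for the 3 comparisons. The fraction at right counts the settings with an adjusted p under 0.05 among those run. Timp2 and Mmp9 against cmB16F1 passed in all 17, while Mmp13 passed in 8 and 12 of 17.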

How the data were processed

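Total RNA of 9 cultures was labelled with biotin following the manufacturer and hybridised to 1-colour Affymetrix arrays, per the labels' protocols. The deposited log2 values had been normalized between arrays by the authors. No header names the scale, which was taken from the values. How background was removed, how probes were summarised and which chip definition was used is not given in the sources used here. With 3 arrays per group, the number of arrays limits the precision.

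The 64 control sets comprised 19 for mouse transcripts, 18 hybridization controls and 27 bacterial poly-A controls. For 57 clusters with a pair of sets, none of them a member, the set with the higher mean was used. The gene table named 0 of the cluster numbers, and the lists fixed by symbol were therefore not used. The model was fitted in limma 3.58.1 under R 4.3.3 (lmFit, eBayes with a mean-variance trend) to all 9 arrays with a term for group and no other, leaving 6 residual degrees of freedom. Benjamini-Hochberg adjustment ran over 17829 features, clusters and mouse control sets, at a threshold of 0.05. No filter was applied. The procedure was tested on simulated data with independent noise on each array and shifts added only in cmB16F1+dexa+IL4. Correlation between arrays of equal number and differences in array scale were not simulated. All members were named. The members and lists were chosen with earlier results of these data known. The motifs were chosen after the values were seen.

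Deviations from group means correlated across clusters at 0.617, 0.565 and 0.662 between arrays of equal number in cmB16F1+dexa+IL4 and cmB16F1, all over the limit of 0.1, so equal numbers were taken to mark pairs there. The counts and p-values in the text still come from the model without a block, unless a block is named. Blocked values for the members called in cmB16F1+dexa+IL4 compared with cmB16F1 are given at the end. The correlations were -0.0672 to 0.224 between cmB16F1+dexa+IL4 and dexa+IL4 and -0.0234 to 0.236 between dexa+IL4 and cmB16F1, which were not taken as paired. The alternatives were quantile normalization, median centring, scaling to the hybridization controls, a filter on dim sets, no trend, array weights, only the arrays compared, a replicate block, and leaving out each of the 9 arrays.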

Additional observations from a re-analysis of the deposited data

How the results depend on the processing

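No member's call changed direction under any of the 17 alternatives. In cmB16F1+dexa+IL4 compared with dexa+IL4, the 2 members called became 1 with median centring and 4 under hybridization-control scaling, and ranged from 1 to 2 when single arrays were left out. The 3184 clusters called became 7104 with scaling to the hybridization controls and ranged from 2044 to 3356 when single arrays were left out, with 2044 without dexa+IL4 replicate 1 and 2096 without its replicate 3. In cmB16F1+dexa+IL4 compared with cmB16F1, 4 to 6 members and 1937 to 2318 clusters were called without single arrays. In dexa+IL4 compared with cmB16F1, 1893 of the clusters passed with scaling to the hybridization controls, against 4454 as reported. Without single arrays 3 to 5 members and 3218 to 4721 clusters were called, the 3 without dexa+IL4 replicate 1. With the replicate number as a block, 7 members and 3052 clusters were called in the paired comparison of cmB16F1+dexa+IL4 with cmB16F1, against 6 and 2516 as reported. The block changed no other member's call there than that of Mmp14. Its limma adjusted p there was 0.00202 for Mmp8, 0.00183 for Mmp9, 2.21e-04 for Mmp12 and 0.00883 for Mmp13. For Timp1 it was 0.00806 and for Timp2 1.15e-04. In the comparisons not taken as paired, the block gave 3 members and 4149 clusters for cmB16F1+dexa+IL4 with dexa+IL4, where Mmp14 passed (limma adjusted p = 0.0372), and 5 members and 5172 clusters for dexa+IL4 with cmB16F1. With dim sets left out, Mmp2 was not tested. The set with the lower mean was not tried, since no member had a second set. Signals near the poly-A controls limit what can be seen for Mmp2, Mmp9, Mmp13 and Timp3. The causes of these changes were not tested.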
